A study of Mus musculus with 36 samples.

Results

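Chromatin immunoprecipitation followed by sequencing (ChIP-seq) for CTCF and MBD3 was used to describe the CTCF sites that had a CTCF peak on each of 4 days and no MBD3 peak on any of them. The authors' CTCF peak lists of days 0, 2, 4 and 6 were merged where intervals overlapped by 1 bp or more on chromosomes 1 to 19, X and Y, which gave 53682 sites. Of the 25409 sites with a peak on all 4 days, 11396 (44.9%, 95% interval 44.2 to 45.5) overlapped no peak of any MBD3 list. This share was 72.2% when only MBD3 peaks with a -log10 q of 10 or more were used, and 85.4% when the lists of each antibody were shortened to equal length. The other 14013 sites of all 4 days, to which they are compared, overlapped an MBD3 peak on 1 day (6332 sites), 2 days (3883), 3 days (3096) or all 4 days (702). The sites were chosen by the presence of CTCF peaks and the absence of MBD3 peaks in these same lists, so their lack of MBD3 and their CTCF on every day are given as a description. Below, a site without MBD3 is a site without a called MBD3 peak, which is not a measurement that MBD3 was absent. The lowest number of fragments under any called MBD3 summit was 8, 10, 9 and 8 on days 0, 2, 4 and 6, so weaker enrichment would not have been called.

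The 36 samples were mouse embryonic stem cells, grown with leukaemia inhibitory factor and serum replacement on irradiated fibroblast feeders, in 12 groups of 3. On each of days 0, 2, 4 and 6 there was a group for MBD3, for CTCF and for input. The names of the peak lists call the cells WT, and the labels give no clone, sex or treatment that sets the days apart. The series title sets the question in the relation of the NuRD complex to CTCF sites. For each day and antibody a single list was called from 3 pooled replicates, so no spread between replicates can be given and no test between days or classes was made. The intervals below are 95% intervals that treat sites as independent, cover counting error only, and are exact binomial for shares. The CTCF lists held 47414, 28137, 36787 and 38109 peaks on days 0, 2, 4 and 6, and the MBD3 lists 10464, 1991, 9006 and 10875. The background level of a list was taken as the lowest expected background shared by at least 0.5% of its peaks. This level, the only measure of sequencing depth at hand, lay between 1.83 and 2.87 fragments for CTCF and between 1.41 and 2.18 for MBD3.

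CTCF is a zinc finger protein that binds a long DNA motif and stops cohesin as it extrudes chromatin loops, so that many of its sites lie at loop anchors and at the borders of topological domains. MBD3 is a subunit of NuRD, a complex that joins nucleosome remodelling by CHD proteins with histone deacetylation by HDAC1 and HDAC2. In embryonic stem cells MBD3 is found mainly at active promoters and enhancers, and cells without it are impaired in lineage commitment.

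The promoter sequences below are examples of DNA at which CTCF was bound with and without an MBD3 peak. They are the gene start windows (250 bases before to 50 after a start, RefSeq, GRCm38.p6, the assembly of mm10) that held a day 0 CTCF summit with the highest fold enrichment of their class. Capitals mark a match to the CTCF core letters CCANNAGNNGGC, where N is any base, read on either strand, and a sequence without capitals holds no match. The whole window was searched, so a match need not lie at the CTCF summit. At Smim8 the match starts at base -1 from the gene start and the day 0 summit lay at -66. At 4 promoters CTCF had a peak on every day and MBD3 had none. They belong to Lpar3, a lysophosphatidic acid receptor gene (chr3:146220711-146221010, plus strand), the predicted gene Gm32046 (chr11:68432036-68432335, minus strand), the membrane protein gene Smim8 (chr4:34778317-34778616, minus strand) and the predicted gene Gm34325 (chr2:122569443-122569742, plus strand).
Lpar3: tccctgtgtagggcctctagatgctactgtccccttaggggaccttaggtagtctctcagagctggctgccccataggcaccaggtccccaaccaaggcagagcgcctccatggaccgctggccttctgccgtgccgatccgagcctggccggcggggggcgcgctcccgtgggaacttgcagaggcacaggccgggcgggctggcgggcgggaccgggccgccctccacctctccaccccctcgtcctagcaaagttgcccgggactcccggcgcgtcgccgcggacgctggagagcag
Gm32046: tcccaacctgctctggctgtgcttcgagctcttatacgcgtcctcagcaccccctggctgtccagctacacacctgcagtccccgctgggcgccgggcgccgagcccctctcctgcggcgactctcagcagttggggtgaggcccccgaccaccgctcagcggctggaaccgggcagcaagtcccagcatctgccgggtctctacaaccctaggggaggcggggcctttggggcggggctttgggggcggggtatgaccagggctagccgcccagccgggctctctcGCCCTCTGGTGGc
Smim8: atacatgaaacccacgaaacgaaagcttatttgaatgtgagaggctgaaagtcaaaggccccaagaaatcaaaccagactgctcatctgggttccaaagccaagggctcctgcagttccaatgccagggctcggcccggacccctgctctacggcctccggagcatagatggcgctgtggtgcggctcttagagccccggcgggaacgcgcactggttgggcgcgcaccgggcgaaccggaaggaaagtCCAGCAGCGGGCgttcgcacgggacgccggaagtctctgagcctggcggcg
Gm34325: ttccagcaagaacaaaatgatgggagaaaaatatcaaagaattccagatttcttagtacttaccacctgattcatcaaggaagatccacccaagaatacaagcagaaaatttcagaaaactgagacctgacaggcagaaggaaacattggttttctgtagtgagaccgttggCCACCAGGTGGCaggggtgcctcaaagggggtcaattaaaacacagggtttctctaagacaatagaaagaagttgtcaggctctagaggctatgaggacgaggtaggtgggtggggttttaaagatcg
The CTCF fold enrichment at the Lpar3 site was 20.4, 6.62, 11.9 and 10.9 on days 0, 2, 4 and 6, and at the Gm34325 site 17.1, 6.81, 5.55 and 7.58. These windows held 25 CpG dinucleotides at Lpar3 and 3 at Gm34325, so such sites occurred in both CpG-rich and CpG-poor starts.

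The promoters with the strongest CTCF among sites with MBD3 on all 4 days are shown for comparison. They belong to Lsm11, a gene for the processing of histone mRNAs (chr11:45944886-45945185, minus strand), and Vps36, an endosomal sorting gene (chr8:22192583-22192882, plus strand).
Lsm11: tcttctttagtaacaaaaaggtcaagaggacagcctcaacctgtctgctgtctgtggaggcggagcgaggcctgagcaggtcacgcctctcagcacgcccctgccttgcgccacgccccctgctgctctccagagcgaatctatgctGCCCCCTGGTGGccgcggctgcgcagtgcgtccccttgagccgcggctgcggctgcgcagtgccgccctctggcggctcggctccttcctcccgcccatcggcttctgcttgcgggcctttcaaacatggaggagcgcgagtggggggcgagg
Vps36: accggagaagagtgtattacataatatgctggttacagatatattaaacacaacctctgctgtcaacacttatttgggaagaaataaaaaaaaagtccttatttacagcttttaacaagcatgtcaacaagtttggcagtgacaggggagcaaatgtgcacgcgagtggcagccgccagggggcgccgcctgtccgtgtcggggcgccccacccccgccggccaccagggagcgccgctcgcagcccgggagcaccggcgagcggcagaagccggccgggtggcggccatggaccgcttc
At the Lsm11 site the CTCF fold was 48.3, 16.0, 28.2 and 29.0 on days 0, 2, 4 and 6, and the MBD3 fold 17.6, 5.13, 12.0 and 10.7. The strongest CTCF promoter without MBD3, at Lpar3, had a lower day 0 CTCF fold than either of these.

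Sites without MBD3 were weaker CTCF sites on every day, both in fold enrichment (fragments over the summit plus 1, divided by the expected background plus 1, as the peak caller gives it) and in the fragments themselves. Their median CTCF fold was 7.76 (7.71 to 7.83) on day 0, against 11.8 (11.7 to 11.9) at the other sites of all 4 days. On day 2 it was 5.09 against 6.18, on day 4 it was 8.44 against 12.1, and on day 6 it was 8.86 against 13.2. The intervals of the medians treat sites as independent and are not a test between the classes. The quartiles of the day 0 fold were 6.02 and 10.0 without MBD3, against 9.21 and 15.0 with it, so the classes overlapped. Of the sites without MBD3, 13.0% lay above the median day 0 fold of the other sites, and 28.2%, 16.4% and 13.2% did so on days 2, 4 and 6. Their highest fold was 26.4 on day 0, against 60.6 at the other sites.

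The difference was larger in fragments than in fold. The median site without MBD3 had 65 fragments over its CTCF summit on day 0, against 148 at the other sites. The medians were 39 against 81 on day 2, 47 against 104 on day 4 and 52 against 128 on day 6, which is 0.406 to 0.481 of the other sites' number over the 4 days. The expected background at the summit was lower too, at a median of 7.30 against 11.9 fragments on day 0. The peaks themselves were narrower, with a median width of 312 bp against 400 bp on day 0 and 307 bp against 386 bp on day 6.

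**Figure D1:**
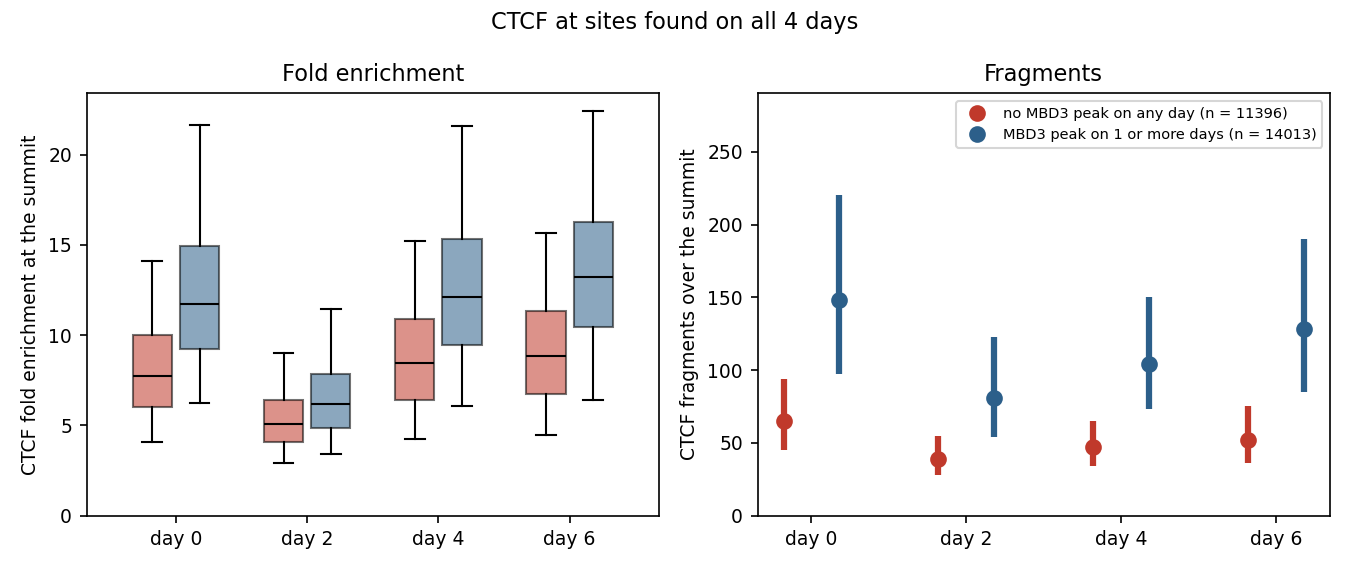
CTCF fold enrichment at the summit (left) and CTCF fragments over the summit (right), on linear axes, for the 11396 sites without MBD3 and the 14013 other sites of all 4 days, by day. On the left, boxes run between the quartiles with a line at the median, and whiskers reach the 5th and 95th percentiles. On the right, points are medians and bars run between the quartiles. The sites without MBD3 had the lower median on each day, with the smallest gap in fold on day 2 (5.09 against 6.18).

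Lack of MBD3 followed CTCF strength over its whole range. When the 25409 sites were ranked by mean log2 CTCF fold over the 4 days and split into deciles, 81.0% (79.5 to 82.5) of the weakest decile were without MBD3, and this share fell at each step to 5.71% (4.84 to 6.68), or 145 of 2541 sites, in the strongest. Ranked by mean log2 CTCF fragments instead, a ranking chosen after the data were seen, it was 92.8% in the lowest decile and 1.06%, or 27 of 2541 sites, in the highest. The part of the fragment number in the fold relation was not tested. Among sites with CTCF on 1, 2 or 3 days only, 94.0%, 95.9% and 92.3% were without MBD3, and 70.7% of all merged sites were.

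**Figure D2:**
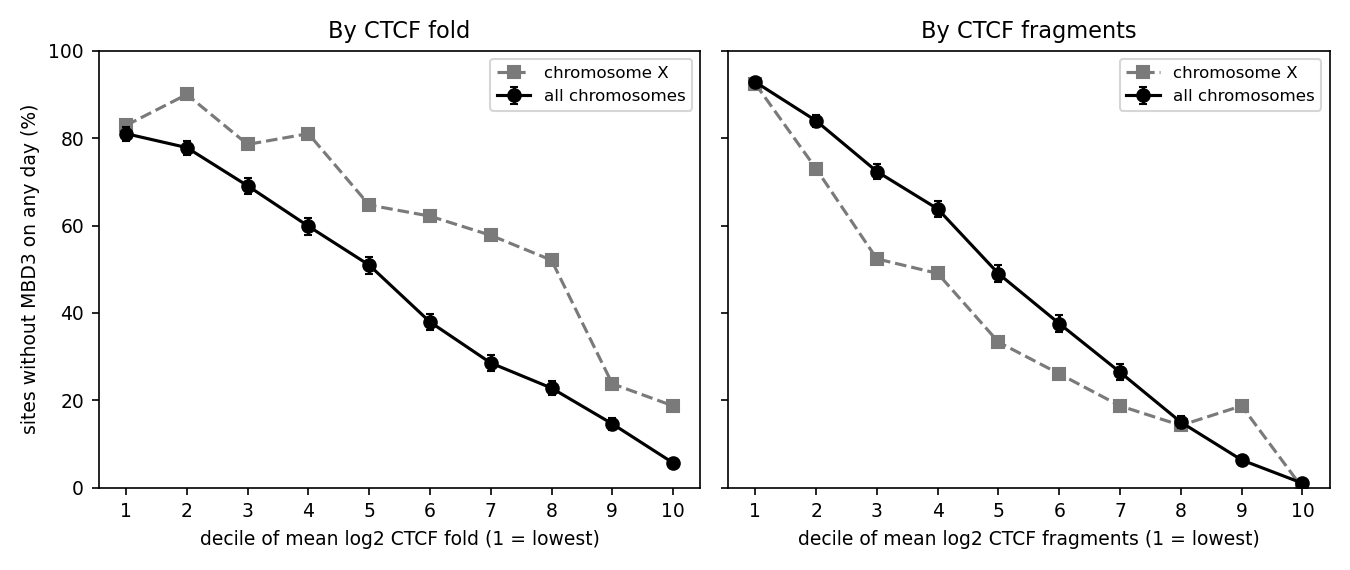
Percent of CTCF sites of all 4 days without MBD3, by decile of mean log2 CTCF fold (left) and of mean log2 CTCF fragments (right), with exact 95% intervals on the line for all chromosomes. All chromosomes fall from 81.0% to 5.71% by fold and from 92.8% to 1.06% by fragments, and chromosome X lies above them by fold in each decile and below them by fragments in 9 of 10. Fragment deciles 6 to 10 hold only 9 to 23 X sites each.

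Of the 10 strongest sites without MBD3, ranked by the lowest of their 4 daily folds, 7 lay inside a gene and away from its ends. This held for 46.2% of all sites without MBD3 and 42.2% of all sites of all 4 days, and 10 sites are too few to compare. The highest of the 10 was chr15:39334696-39335043 (mm10), inside Rims2, which encodes a scaffold of the presynaptic active zone. Its CTCF fold was 16.8, 16.1, 32.1 and 18.2 on days 0, 2, 4 and 6, from 108, 58, 92 and 107 fragments, and the nearest MBD3 peak of any day was 27096 bp away. The next, chr10:46011893-46012321, was 299773 bp from the nearer end of the ubiquitin ligase gene Hace1, with folds of 15.1, 14.6, 13.5 and 16.6. The third, chr7:91226413-91226836, lay inside Dlg2, a postsynaptic scaffold gene, with folds of 14.2, 13.6, 17.4 and 13.4. Ranking by the lowest fold favours sites with a high day 2 fold, so the even folds of these sites follow from the choice. The remaining 7 of the 10 strongest had day 0 folds of 13.2 to 20.1. They lay inside Adamtsl3, Cntln, D630023F18Rik, the neuronal guidance gene Nav3 and Ccdc171, and outside genes nearest to the catenin gene Ctnnd2 and to Hnrnpr.

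The sites without MBD3 with the most fragments, picked after their values were seen, were different places. The one with the most, chr8:20592748-20593257, had 508 fragments on day 0 over an expected background of 141, a fold of only 3.57, and an MBD3 peak 1823 bp away. The next was 146 bp from an end of Spata33, with 417, 174, 218 and 293 fragments on days 0, 2, 4 and 6. A site 47 bp from an end of Srp9, a signal recognition particle gene, had 282, 190, 229 and 296. A site 82 bp from an end of Adam17, which encodes a membrane protein sheddase, had 371, 207, 176 and 259 and no MBD3 peak within 68014 bp. Well-covered CTCF sites were therefore found without an MBD3 call, though rarely.

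Across the 4 days the sites without MBD3 lost less CTCF fold on day 2 than the others. Their median day 2 over day 0 fold was 0.654 (0.648 to 0.660), against 0.518 (0.514 to 0.522) at the other sites. On day 2, 14.8% of the sites without MBD3 were above their own day 0 fold, against 6.12% of the others and 10% of all sites of all 4 days. The ratio was higher without MBD3 in 10 of 10 deciles of CTCF fold. In fragments the difference was smaller, 0.610 against 0.560, and the expected background ran the other way, with a day 2 over day 0 ratio of 0.949 against 1.08. Within deciles of CTCF fragments the fold ratio of the sites without MBD3 was 1.07 times that of the others, against 1.26 times over all sites. Every site here needed a called CTCF peak on day 2, which limits how far the fold of a weak site can fall. In the lowest fragment decile the day 2 over day 0 fold was 0.790 without MBD3 and 0.719 with it. In the highest it was 0.483 and 0.474. The part of this limit in the difference between the classes was not tested.

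Later days separated the classes little in their unmatched medians. The median day 4 over day 0 fold was 1.07 without MBD3 and 1.01 with it, and 56.9% against 51.2% of sites were above day 0 (53.8% of all). The median day 6 over day 0 fold was 1.13 against 1.09, with 61.5% against 59.2% above day 0 (60.3% of all). In fragments the day 6 over day 0 ratio was the lower one without MBD3, at 0.808 against 0.896. The direction depended on how the classes were matched. Within deciles of CTCF fold the day 6 ratio of the sites without MBD3 was 1.14 times that of the others, with 1.01 against 0.737 in the lowest decile. Within deciles of CTCF fragments it was 0.973 of that of the others. All of these ratios share day 0, and folds of different days depend on each list's background.

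The class with MBD3 was itself mixed in these ratios. Sites with MBD3 on day 0 alone (2100) had a day 2 over day 0 CTCF fold of 0.452 and a day 6 over day 0 fold of 0.854. Sites with MBD3 on day 6 alone (2865) had 0.620 and 1.40, and the 702 sites with MBD3 on all 4 days 0.540 and 1.08. The sites without MBD3, at 0.654 and 1.13, thus lay above the sites with MBD3 on day 0 alone in both ratios, and below those with MBD3 on day 6 alone in the day 6 ratio. In the day 2 ratio some small groups with MBD3 on day 2 lay above the sites without MBD3. It was 0.947 with MBD3 on day 2 alone (36 sites) and 1.15 on days 2, 4 and 6 (38). The sites with MBD3 on all 4 days, and those on days 0, 2 and 4 (19 sites, 0.632), lay below. When only other sites without MBD3 on day 0 were compared, the day 6 over day 0 ratio of the sites without MBD3 was 0.860 of theirs. Their day 2 over day 0 ratio was then 1.08 times that of the others, against 1.26 times over all sites.

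**Figure D3:**
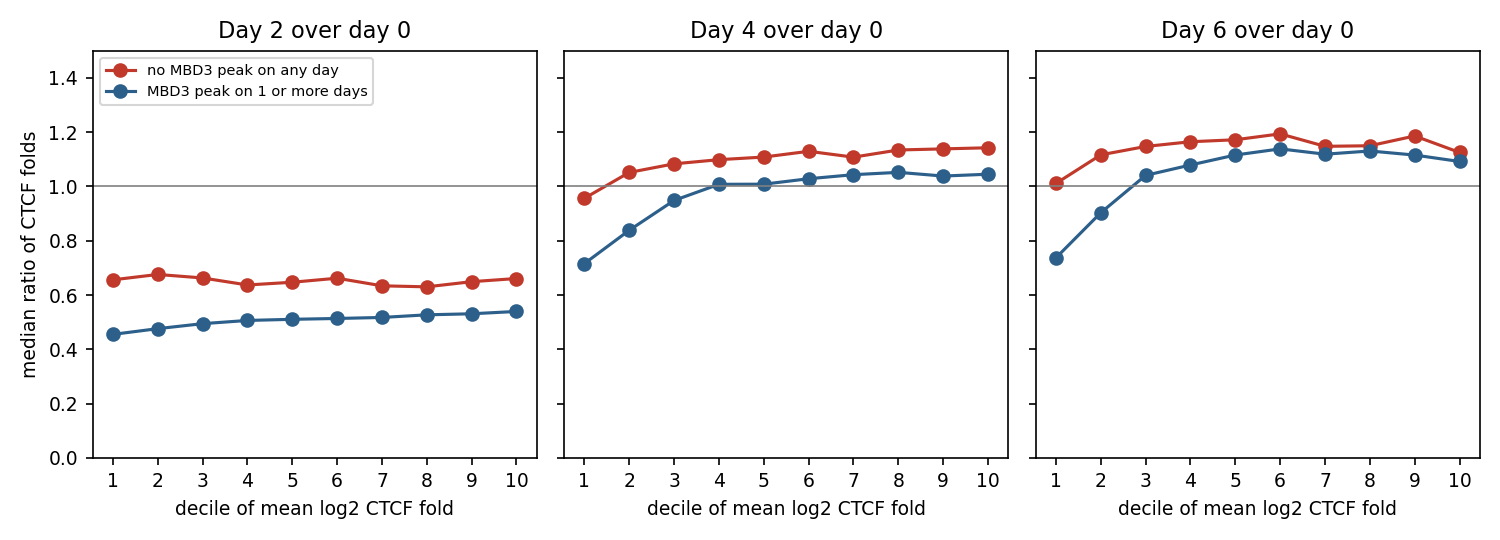
Median CTCF fold on days 2, 4 and 6 over that of day 0 (linear axis), by decile of mean log2 CTCF fold, for sites without MBD3 and other sites of all 4 days. The line of the sites without MBD3 is the higher one in 10 of 10 deciles on each day, and only on day 2 are both lines below 1 throughout.

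Single sites moved further than these medians. Among sites without MBD3 whose day 0 fold was at or above their median, the highest day 6 over day 0 fold was 2.81, at chr5:5266548-5266824 inside the kinase gene Cdk14, with folds of 7.99, 10.2, 13.7 and 22.4 on days 0, 2, 4 and 6. Its fragments were 58, 45, 45 and 73, so they moved less than the fold did. Sites inside the phospholipase gene Plcb4 and inside Zfp385b followed with 2.64 each. The lowest ratio was 0.223, at chr4:123758130-123758756, 8221 bp from an end of Akirin1, with folds of 15.2, 3.98, 9.29 and 3.38. A site on chromosome X 101 bp from an end of Fam199x had a ratio of 0.247, with 146, 67, 74 and 53 fragments. A site 513149 bp from the nearer end of Auts2, a neurodevelopmental gene, had a ratio of 0.252.

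Sites without MBD3 lay farther from gene ends. The RefSeq table used gives the outer ends of 21887 protein-coding genes without strand or exons, so exon and intron were not told apart. A CTCF summit within 1 kb of an end was found for 861 sites without MBD3 (7.56%, 7.08 to 8.06), against 2033 other sites (14.5%, 13.9 to 15.1), and for 11.4% of all sites of all 4 days. The difference of -6.95 percentage points was -2.29 when sites of high background were left out and -11.6 with lists of equal length. Summits inside a gene and away from its ends made up 46.2% without MBD3 and 38.8% with it (42.2% of all). Summits between genes and more than 50 kb from any made up 15.7% against 9.94%. The median distance to a gene end was 17839 bp (17169 to 18528) against 10236 bp (9880 to 10646). The share at gene ends was larger the more days carried MBD3, with 7.56%, 10.4%, 14.7%, 21.0% and 21.9% at sites with MBD3 on 0, 1, 2, 3 and 4 days.

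This difference depended on how CTCF strength was matched. Within deciles of CTCF fold the share at gene ends was lower without MBD3 in 10 of 10 deciles, and the other sites, weighted to the fold deciles of the sites without MBD3, had 21.2% at gene ends. Within deciles of CTCF fragments it was the higher one without MBD3 in 9 of 10, by a weighted 2.31 percentage points. In the lowest fragment decile 2.46% of the sites without MBD3 and 3.30% of the others were at gene ends, and in the highest, with only 27 sites without MBD3, 40.7% and 33.3%. Sites at gene ends had more fragments in both classes: on day 0 the median was 99 without MBD3 and 225 with it, against 63 and 139 at sites away from gene ends. Their expected background on day 0 was a median of 12.8 fragments without MBD3 and 18.3 with it. The lower share at gene ends was thus not seen among sites with the same number of CTCF fragments.

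**Figure D4:**
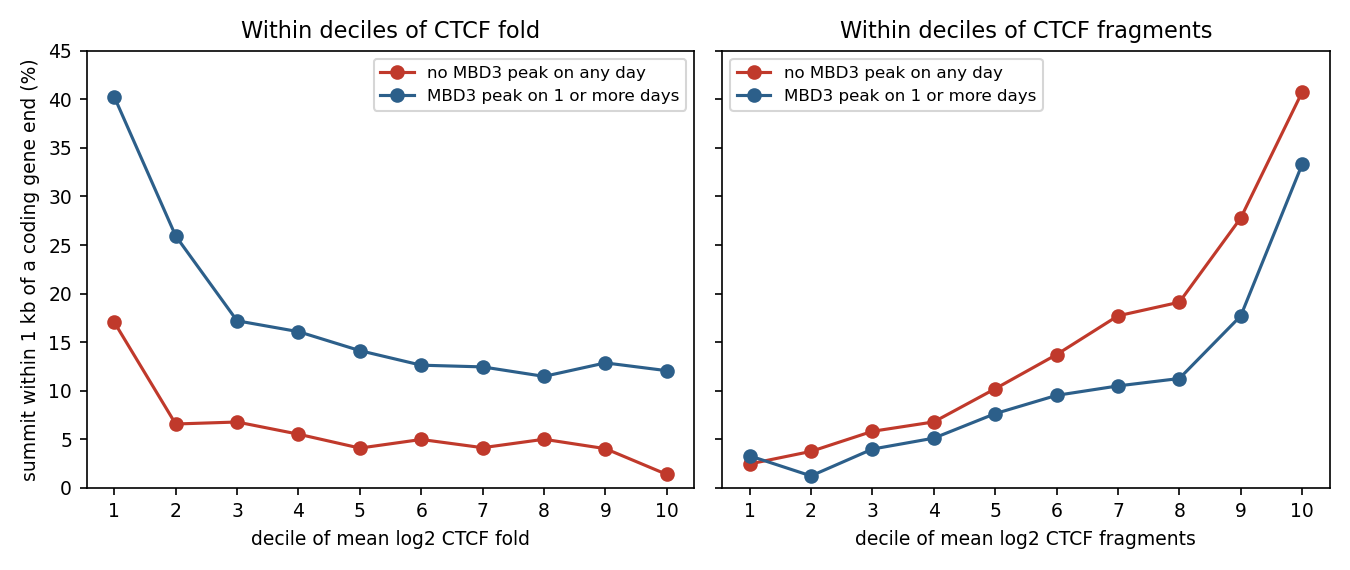
Percent of sites with a CTCF summit within 1 kb of a coding gene end, for sites without MBD3 and other sites of all 4 days, by decile of mean log2 CTCF fold (left) and of mean log2 CTCF fragments (right). By fold the sites without MBD3 are the lower ones in 10 of 10 deciles, and by fragments they are the higher ones in 9 of 10.

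Around gene starts the classes differed most just upstream of the start. In the 500 bp just upstream of a RefSeq gene start lay the day 0 CTCF summit of 2.09% of the sites without MBD3, against 6.68% of the others. In the bins from 1000 to 5000 bp on either side the shares were 0.542% to 1.03% without MBD3 and 0.618% to 1.24% with it. They were lower without MBD3 in each of these bins except those from 3500 to 4000 and from 4500 to 5000 bp downstream. A summit within 250 bp of a start was found at 264 of 11072 sites without MBD3 (2.38%) and at 1001 of 13598 others (7.36%). Chromosome 18 is not in the table of gene starts and was left out of these counts. These shares were not matched for CTCF fragments, of which the sites without MBD3 had fewer. The lower share at gene ends, a related measure, was not seen at matched fragments.

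**Figure D5:**
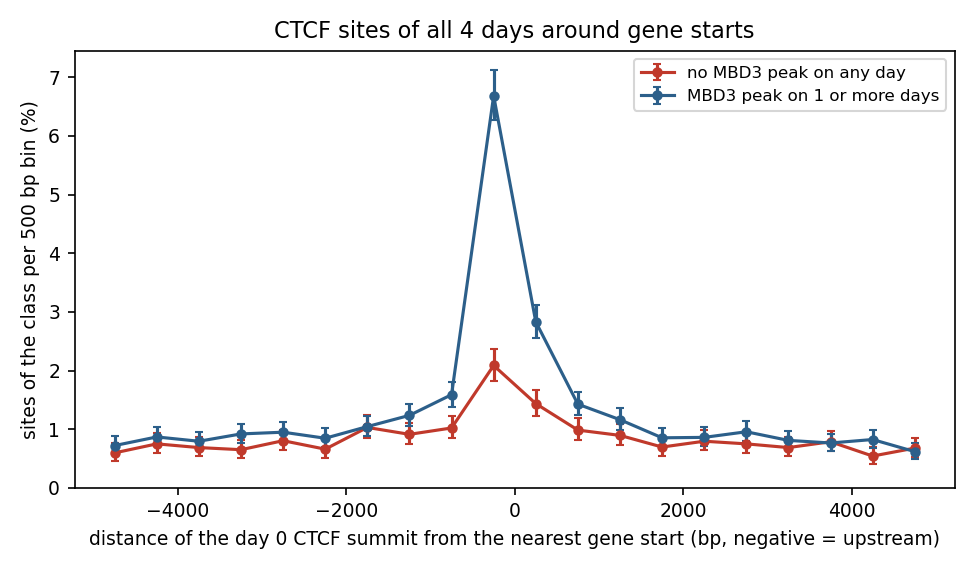
Percent of the sites of each class per 500 bp bin of distance between the day 0 CTCF summit and the nearest gene start (negative is upstream), with exact 95% intervals. The bin just upstream of the start holds 2.09% of the sites without MBD3 and 6.68% of the other sites of all 4 days, and the lines lie closer together away from the start. The classes are not matched for CTCF fragments.

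The promoter windows at sites without MBD3 held fewer CpG dinucleotides. Of the sites without MBD3, 201 had a summit in 221 such windows, and of the others 856 had one in 942 windows. The median window held 17 CpG (14 to 19) without MBD3, against 22 (21 to 23) with it and 7 over all 32851 windows, and the median G and C content was 59.0% against 62.7% (52.7% over all). In fold deciles 1 to 3 the median was 18 CpG against 24, and in fold deciles 4 to 10 it was 14 against 22. In fragment deciles 1 to 5, a split chosen after the data were seen, the median was 10.5 CpG against 10, in deciles 6 to 8 it was 20.5 against 16, and in deciles 9 and 10 it was 21 against 23. The CpG number was thus lower without MBD3 in both fold ranges, but not in fragment deciles 1 to 5 and 6 to 8. These ranges are broad, so the classes were not closely matched within them. In fragment deciles 1 to 5 the intervals of the medians were 8 to 12 and 7 to 14, from 90 and 37 windows. The core letters CCANNAGNNGGC, with 8 fixed letters of 12, occurred on either strand in 30 of the 221 windows without MBD3 (13.6%, 9.35 to 18.8) and in 184 of the 942 with it (19.5%, 17.0 to 22.2). They occurred in 2.43% of all windows. In fold deciles 1 to 3 the order turned, with 12.4% of the windows without MBD3 and 7.50% of those with it, and in fold deciles 4 to 10 the shares were 17.6% against 22.8%. In fragment deciles 1 to 5 the shares were 14.4% against 16.2%, in deciles 6 to 8 they were 10.4% against 21.2%, and in deciles 9 and 10, with only 35 windows without MBD3, 20.0% against 19.2%. The stricter letters CCANNAGGNGGC, which match a subset of the same places, occurred in 7.69% against 11.8% and in 0.916% of all. A window without a match, such as those of Lpar3 and Vps36 above, lacks these letters only.

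Genes with a site without MBD3 at an end were fewer than those with a site that carried MBD3. Within 1 kb of an end, 931 of the 21887 coding genes (4.25%) had a site without MBD3, 2192 (10%) had a site with MBD3, and 80 had both. None of 20 genes for CTCF, cohesin and their partners had a site without MBD3, while 7 had one with MBD3: Ctcf itself, its paralogue Ctcfl, the cohesin subunit genes Smc3 and Stag2, the cohesin regulators Pds5a and Pds5b, and the acetyltransferase gene Esco1. Of 15 NuRD genes, Cdk2ap1, which encodes a small accessory subunit, had a site without MBD3 and the deacetylase gene Hdac1 a site with it. The Cdk2ap1 site, chr5:124353528-124354299, had CTCF folds of 3.61, 2.70, 4.82 and 4.53 on days 0, 2, 4 and 6, and its nearest MBD3 peak was 1021 bp away.

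Among 11 genes for DNA methylation and its removal, Tet3, which encodes a dioxygenase that oxidises methylcytosine, had a site without MBD3 and none had a site with MBD3. The Tet3 site, chr6:83455853-83456898, was weak, with CTCF folds of 3.97, 2.24, 2.67 and 2.62. Of 21 naive pluripotency genes, 1 had a site without MBD3 and 0 had one with it: the transcription factor gene Tbx3, with CTCF folds of 5.16, 2.40, 6.43 and 5.70. No neuroectoderm gene of 14 and no mesoderm or endoderm gene of 16 had a site without MBD3, while 2 of each list had one with it. Of 39 Hox genes, which set position along the body axis, 1 had a site without MBD3 and 7 had one with it. That site, chr2:74694091-74694418 at Hoxd10, had CTCF folds of 7.87, 3.78, 4.82 and 6.33. Imprinted genes (27 in the table), formative and primed pluripotency genes (11 in the table) and 15 housekeeping genes had 0 sites without MBD3, against 2, 1 and 1 genes with an MBD3 site. Shares of 0 or 1 gene lie near the background of 4.25% in lists this short.

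The clustered protocadherins were the exception among the lists. These genes encode neuronal cell surface proteins, and a choice among their alternative promoters, which are bound by CTCF, gives single neurons different sets of them. Of 58 genes, 17 (29.3%, against 4.25% of all coding genes) had a site without MBD3 at an end. A site with MBD3 lay at 32 of the 58, against 10% of all coding genes, and 9 genes had both. Genes with a site of either class were thus more frequent here than over all coding genes. Genes of the gamma cluster share their ends, so sites were also counted once each: 38 sites of all 4 days lay at ends of the 58 genes, of which 18 were without MBD3 and 20 carried it, close to the 44.9% of all sites of all 4 days. The alpha cluster had 0 sites without MBD3 and 6 with it. The beta cluster had 9 and 5, at 8 and 4 of its 22 genes. The gamma cluster had 9 and 9, where a single site with MBD3 touched all 22 genes.

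In the beta cluster, the site without MBD3 at Pcdhb2, chr18:37294627-37294985, had CTCF folds of 15.2, 5.15, 8.78 and 13.1 on days 0, 2, 4 and 6. The site at Pcdhb3, chr18:37300612-37300945, had 12.0, 5.61, 16.5 and 18.8. The beta sites without MBD3 had median folds of 9.51, 5.86, 11.6 and 13.1 on the 4 days, above the medians of all sites without MBD3. The 5 beta sites with MBD3 had it on 1 day each, and their day 0 CTCF folds ran from 5.75 at Pcdhb12 to 17.0 at Pcdhb8. Within this cluster strong and weak sites occurred in both classes. In the gamma cluster, the site at Pcdhga9, chr18:37736757-37737209, had 14.3, 6.16, 12.2 and 11.9.

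Chromosome X stood apart from the autosomes. Of its 523 sites of all 4 days, 328 (62.7%, 58.4 to 66.9) were without MBD3, while single autosomes had between 40.1% and 50.8%. From the fold deciles of its sites 45.9% would be without MBD3, and the share on X exceeded that of all chromosomes in 10 of 10 fold deciles. Median CTCF folds on X were close to those of the autosomes over all sites of all 4 days, with 9.25 against 9.87 on day 0 and 11.4 against 11.1 on day 6. Fragments were not: X sites had a median of 52 on day 0, against 102 on the autosomes, with an expected background of 4.56 against 10.0. Fragment deciles 1 to 3 held 68.1% of the X sites and 29.2% of the autosomal ones. Within deciles of fragments the share without MBD3 was lower on X in 9 of 10, with a weighted difference of -8.66 percentage points. Fragment deciles 6 to 10 held only 9 to 23 X sites each. In decile 1, with 172 X sites, the shares were close, at 92.4% on X and 92.8% over all chromosomes. MBD3 lay on 16.6%, 1.91%, 15.1% and 24.7% of the X sites on days 0, 2, 4 and 6, against 33.0%, 3.53%, 29.2% and 38.3% of the autosomal ones. X and autosomes thus differed in fragments and background as well as in MBD3 calls. The labels do not give the sex of the cells, so the number of X copies is unknown, and its part in these values was not tested.

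Along the chromosomes, the next site lacked MBD3 a little more often after a site without MBD3 than after a site with it. The next site of all 4 days lacked MBD3 after 47.8% (46.9 to 48.7) of the sites without MBD3, and after 42.4% (41.6 to 43.3) of the others. The longest runs held 14 consecutive sites of all 4 days without MBD3. Among them were chr4:83183310-85097046, with Psip1, Ccdc171, Bnc2 and Cntln among its genes, and chr5:127487204-127938393, with Tmem132c and Tmem132d. The chromosome 4 run holds 2 of the 10 strongest sites, those inside Cntln and Ccdc171. CTCF sites of any day were sparser around sites without MBD3, with the nearest other one at a median of 9219 bp against 6787 bp.

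The gap from a site without MBD3 to the nearest MBD3 peak of any day had a median of 29804.5 bp. Its quartiles were 10152 and 78662 bp, and 341 sites (2.99%) had an MBD3 peak within 1 kb. The other sites overlap an MBD3 peak by the rule, so this gap is a description without a comparison. The farthest site, chr1:147223311-147223576, with Brinp3 as its nearest gene at 320974 bp, was 2911 kb from the nearest MBD3 peak and had CTCF folds of 4.91, 6.00, 4.95 and 6.27, from 13 to 21 fragments. The site chr15:21885241-21885522, near the cadherin gene Cdh12, was 2839 kb away, with folds of 12.2, 5.74, 15.5 and 14.3. A pair of sites near Cadm2 and the site near the ephrin receptor gene Epha7 followed at 2404, 2111 and 1894 kb.

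At the edge of the definition the classes were close. Just inside, the smallest gap was 42 bp, at chr11:29173350-29173663 in the phosphatase subunit gene Ppp4r3b, where the CTCF folds were 3.41, 2.24, 3.12 and 4.58. Just outside, the smallest overlap was 30 bp, at chr7:90750748-90751006 inside Dlg2, with an MBD3 peak on day 0 of fold 3.17. Next came 41 bp inside Psd3 and 80 bp near Rps29, with MBD3 folds of 3.06 and 3.72 on a single day. Of the 6332 sites with MBD3 on 1 day, 249 (3.93%) had an MBD3 peak with a -log10 q under 2. The weakest CTCF sites with MBD3 on all 4 days lay in stretches of very high background. At chr14:19418580-19418893 the CTCF fold was 1.16 on day 0, from 1040 fragments over an expected 893.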

How the data were processed

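ChIP-seq for CTCF and MBD3 and input chromatin covered 36 mouse embryonic stem cell samples in 12 groups of 3, grouped by their labels. Per the submitters' processing notes, the build was mm10 and the tools included MACS2 2.1.2, Bowtie2 2.3.4 and bedtools 2.25.0. The authors deposited 8 peak lists, 1 per antibody and day, from replicates pooled before calling, as the list names show. Each deposited list gives a fold, the ratio of the fragments over the summit plus 1 to the expected background plus 1 (which lowers folds where background is low), a -log10 p and a -log10 q, and the summit's offset. These are the authors' own values per peak. Input files were not used here.

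Repeated intervals were taken as 1 peak, with the summit of highest -log10 q. Sites were merged and MBD3 was assigned at 1 bp of overlap. Fragments and background were recovered from the deposited fold and -log10 p by the peak caller's formulas, with a match of the -log10 p within 0.1%, for over 99.9% of the peaks of each list. They are the only measure of depth, and PCR copies are not told apart. Shares have Clopper-Pearson 95% intervals and medians order-statistic ones. No test was made, because peaks came from pooled replicates. Gene ends (21887 coding genes) and 32851 gene start windows came from RefSeq, GRCm38.p6.

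The members, lists and measures were chosen with earlier results of these data known. Named sites without MBD3 are the 10 of highest lowest fold, the 3 highest and 3 lowest in day 6 over day 0 fold, the 5 farthest from MBD3, those with MBD3 within 50 bp, and up to 3 genes per list by day 0 fold. Of the other sites, the 3 of smallest MBD3 overlap and the 3 weakest with MBD3 on 4 days were taken by rule. Promoters were taken by day 0 fold. Besides the runs of consecutive sites described, another of the same length is not reported here. Sites with the most fragments, and genes of the lists whose site carried MBD3, were named after their values were seen. The alternatives tried were lists of equal length, a -log10 q limit of 10, other overlap rules, day 2 left out, background over 10 times the level left out, a window of 5 kb, a stricter motif, and deciles of CTCF fold. The code was tested on simulated data. It ran in Python 3.11.15 with scipy 1.17.1, pandas 2.3.3, numpy 2.4.6 and, for figures, matplotlib 3.10.9.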

Additional observations from a re-analysis of the deposited data

How the results depend on the processing

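No paired analysis was possible because the authors pooled the replicates before calling peaks, and for the same reason leaving out a replicate was not possible. Besides the values below, 27 values kept their direction and stayed within the limits used. For a count the limit was wide, so they include a fall of the 11396 sites to 7710 with CTCF peaks of a -log10 q of 10 or more. They also include a rise to 17051 without the day 2 lists, close to that limit. For the other results the limit was the 95% interval of the main value. The stricter motif is among them, with a difference of -4.09 percentage points (-7.95 to 0.682) against -5.96. The cause of the moves below was not tested. The 11396 sites without MBD3 (44.9%) became 18352 (72.2%) with MBD3 peaks of a -log10 q of 10 or more, and 18378 (85.4%) with lists of equal length. The share was 36.8% with CTCF peaks of a -log10 q of 10 or more, 54.1% without the day 2 lists and 48.8% without high background. The ratio of day 0 CTCF fold, 0.660, was 0.715 with the stricter CTCF peaks, 0.640 with the stricter MBD3 peaks, 0.601 without day 2 and 0.673 without high background.

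The ratio of day 2 over day 0 folds, 1.26, was 1.21 with the stricter MBD3 peaks, 1.14 with lists of equal length, 1.22 without high background and 1.33 within fold deciles. The ratio of day 6 over day 0 folds, 1.03, was 1.00 with the stricter MBD3 peaks, 1.07 with lists of equal length and 1.14 within fold deciles, and turned to 0.997 without high background.

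The gene end difference, -6.95 percentage points, was -7.85 with the stricter MBD3 peaks, -11.6 with lists of equal length, -5.96 without day 2, -2.29 without high background, -11.1 with 5 kb and -13.6 within fold deciles. The excess on X, 18.2 percentage points, was 12.8 with the stricter CTCF peaks and 8.71 with lists of equal length.

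The ratio of day 2 over day 0, the excess on X and the following settings were added after the data were seen. Within fragment deciles the day 2 ratio was 1.07 and the day 6 ratio turned to 0.973, the gene end difference to 2.31 and the X difference to -8.66. Against other sites without MBD3 on day 0, the day 0 fold ratio was 0.771, the day 2 ratio 1.08, the day 6 ratio turned to 0.860 and the gene end difference was -2.50. In fragments in place of fold, the day 0 ratio was 0.439, the day 2 ratio 1.09 and the day 6 ratio turned to 0.902.

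Depth limits the class itself, since a called MBD3 summit had at least 8 to 10 fragments, by list, and 5% of the called MBD3 peaks of a list lay under a fold of 2.17 to 2.86.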
